A study of Rattus norvegicus with 30 samples.

Results

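The genes described here are 7 enzymes that remove superoxide or peroxides and Txnip, the inhibitor of thioredoxin, in the left ventricle of rat hearts of a study with 6 protocols of ischaemia and preconditioning. They were chosen by symbol: Sod1, Sod2, Cat, Gpx1, Gpx3, Prdx1, Prdx6 and Txnip, each with every probe set that carries its symbol on the Affymetrix array. That gave 8 of the 4736 genes with a symbol of their own on the array, and 18 probe sets, a probe set being the group of short probes that reads 1 transcript. All 8 genes entered the tests, with 16 of the 18 probe sets. The other 2, a further probe set of Cat and 1 of Gpx1, were too dim to be tested.

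The study measured total RNA on 30 arrays, 5 biological replicates for each protocol. The groups were control hearts (CTL), hearts put through ischaemia (ISCH), ischaemic preconditioning (IPC), preconditioning with an anaesthetic (APC), and the trigger of each kind of preconditioning by itself (IPC_TRI and APC_TRI). In preconditioning a mild stimulus limits the injury from a later, damaging ischaemia. The trigger groups are read here, from their name, as hearts that had the stimulus and not the later ischaemia, so that IPC minus IPC_TRI and APC minus APC_TRI compare a full protocol with its own stimulus. The anaesthetic, its dose, the lengths of ischaemia and of reperfusion, and the strain, sex and age of the rats do not appear in the labels used here. In a bulk sample of ventricle, fewer cells of a type and less RNA per cell cannot be told apart.

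Superoxide is formed when electrons leak from the respiratory chain or from oxidases onto oxygen, and more of it is formed when blood returns to ischaemic muscle. Superoxide dismutases turn it into hydrogen peroxide: Sod1 is the copper and zinc enzyme of the cytosol and Sod2 the manganese enzyme of the mitochondrial matrix. Peroxide is then removed by catalase (Cat), a haem enzyme of peroxisomes, by the selenium-containing glutathione peroxidases (Gpx1 inside the cell, Gpx3 secreted into plasma and matrix), and by peroxiredoxins, which use a reactive cysteine (Prdx1 is reduced by thioredoxin and Prdx6 mainly by glutathione). Txnip binds reduced thioredoxin and blocks it, and it also lowers glucose uptake. Its own transcript is known to be raised by glucose.

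Promoters of 6 of the 8 genes were found in RefSeq's rat assembly GRCr8, each as the 250 bases before and 50 bases after the annotated start. The 3 printed are those of Prdx1 (chr5:135383656-135383955, plus strand), Cat (chr3:110329477-110329776, minus strand) and Gpx3 (chr10:39529085-39529384, plus strand), because these are the members with a promoter whose levels separated the groups most clearly. Capitals mark TGACNNNGC and TATAAA in Prdx1, CCAAT in Cat, and GGGCGG and CCAAT in Gpx3. Each was searched on both strands, so that ATTGG is CCAAT on the other strand.
Prdx1: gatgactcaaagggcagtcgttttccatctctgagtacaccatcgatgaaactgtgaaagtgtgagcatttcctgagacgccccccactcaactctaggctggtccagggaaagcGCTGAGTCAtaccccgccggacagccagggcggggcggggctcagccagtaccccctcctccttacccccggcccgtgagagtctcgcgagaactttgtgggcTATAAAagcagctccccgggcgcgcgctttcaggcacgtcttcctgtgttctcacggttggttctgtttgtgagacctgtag
Cat: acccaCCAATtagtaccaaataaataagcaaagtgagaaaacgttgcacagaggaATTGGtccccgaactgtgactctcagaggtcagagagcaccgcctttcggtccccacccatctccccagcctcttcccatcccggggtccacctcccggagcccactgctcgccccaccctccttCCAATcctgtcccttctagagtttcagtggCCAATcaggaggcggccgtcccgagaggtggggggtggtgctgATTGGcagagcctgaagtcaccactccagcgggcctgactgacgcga
Gpx3: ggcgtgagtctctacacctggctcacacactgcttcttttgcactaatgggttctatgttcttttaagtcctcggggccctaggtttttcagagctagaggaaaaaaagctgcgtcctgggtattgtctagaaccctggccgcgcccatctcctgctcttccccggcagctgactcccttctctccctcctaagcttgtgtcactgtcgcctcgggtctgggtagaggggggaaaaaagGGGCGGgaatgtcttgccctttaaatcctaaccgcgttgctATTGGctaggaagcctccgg
TGACNNNGC, the core of the antioxidant response element, stood in the Prdx1 promoter on the reverse strand from -135 to -127 (GCTGAGTCA), and in the Sod2 promoter from -35 to -27. It was not found in these windows of Sod1, Cat, Gpx1 or Gpx3, and 12.1% of the 33469 promoters of this length held it. CCAAT occurred 5 times in the Cat promoter, between -245 and 8, while 37.5% of promoters held it at least once and 0.218% held 5 or more. TATAAA, the TATA box, stood at -32 to -27 in Prdx1 and at -28 to -23 in Sod1 (14.2% of promoters). CCAAT also stood at 31 to 35 in Gpx3 and at -68 to -64 in Sod1. GGGCGG, the GC box, stood at -11 to -6 in Gpx3, once each in Sod1 and Gpx1 and 2 times each in Sod2 and Prdx1 (overlapping in Prdx1, from -108 to -98, and not in capitals), and 33.1% of promoters held it. A match of letters is a description of the window and not a bound site.

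Levels below are deposited intensities, on a linear scale and listed from replicate 1 to replicate 5. Changes are differences of group means of quantile-normalized log2(intensity + 16), given ± the standard error (SE), and each group has n = 5. Adjusted p-values are from limma with the Benjamini-Hochberg correction over the 5244 probe sets tested, and a change was called at an adjusted p under 0.05. The arrays had been scaled to 1 level, and their median intensity ran from 114.7 to 189. Some stood apart: the IPC_TRI arrays were the least alike, with a mean correlation of 0.853 to 0.901 with the rest of their own group, against 0.936 to 0.965 for CTL, APC_TRI, IPC and APC, and ISCH replicate 1 had 0.905 against 0.941 to 0.946 in the other ISCH arrays. The bacterial spike signal, added during labelling, had a mean of 12.0 ± 0.61 (log2, SD) in ISCH and 10.8 ± 0.69 in CTL. The ratio of the 3′ to the 5′ beta-actin probe set, a measure of RNA integrity and labelling, had a mean of 0.08 ± 0.24 (log2, SD) in CTL. It was -0.36 ± 0.28 in APC_TRI and -0.46 ± 0.37 in IPC_TRI, against 0.32 ± 0.06 in ISCH, 0.34 ± 0.26 in IPC and 0.04 ± 0.27 in APC. The highest and lowest means were thus those of IPC and its own trigger. All 9 cardiomyocyte markers of a list were on the array and none was at 0, with summed intensities of 170548 to 477077, and 3 of the 9 were called lower in ISCH and in IPC_TRI than in CTL.

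Most of these genes differed somewhere among the protocols. Txnip and Gpx3 rose in ischaemia without preconditioning. With the spike signal added to the fit neither was called there on its brightest probe set. The dimmer probe set of Txnip was also called higher in IPC than in CTL. Prdx1, by contrast, fell in both trigger groups. Prdx6 was called lower in the anaesthetic trigger on its brightest probe set, but it did not differ past the threshold between the triggers. Catalase, Prdx1, Prdx6 and Txnip were higher in each full protocol than in its trigger. In the F test for any difference among the groups, 6 of the 8 genes passed (Sod1, Cat, Gpx3, Prdx1, Prdx6 and Txnip), against 30.5% of the 3155 genes tested, and Sod2 (adjusted p = 0.29) and Gpx1 (0.15) did not.

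A gene is counted here by its probe set with the highest mean. In ISCH minus CTL 2 of the 8 genes were called higher (Gpx3 and Txnip) and none lower, and 3.39% of all genes were called higher. In IPC minus CTL and APC minus CTL none of the 8 was called, against 3.61% and 3.26% of all genes. In the triggers 1 of the 8 was called lower in IPC_TRI minus CTL (Prdx1), where 8.75% of all genes were, and 2 in APC_TRI minus CTL (Prdx1 and Prdx6), where 4.28% were. From trigger to full protocol 4 of the 8 were called higher (Cat, Prdx1, Prdx6 and Txnip) and none lower, both for IPC, where 12.2% of all genes were called higher, and for APC, where 8.91% were. Against ISCH none was called in IPC or APC, where 0.0951% and 0.127% of all genes were.

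The 5 comparisons with CTL share the same 5 control arrays. Over the 8 genes the median change was -0.02 in ISCH minus CTL, 0.03 in IPC minus CTL and 0.04 in APC minus CTL, beside -0.01, 0.00 and 0.02 over all genes. It was -0.32 in IPC_TRI minus CTL and -0.21 in APC_TRI minus CTL, beside -0.02 and 0.01. It was 0.35 in both IPC minus IPC_TRI and APC minus APC_TRI, beside 0.01 and -0.01.

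**Figure D1:**
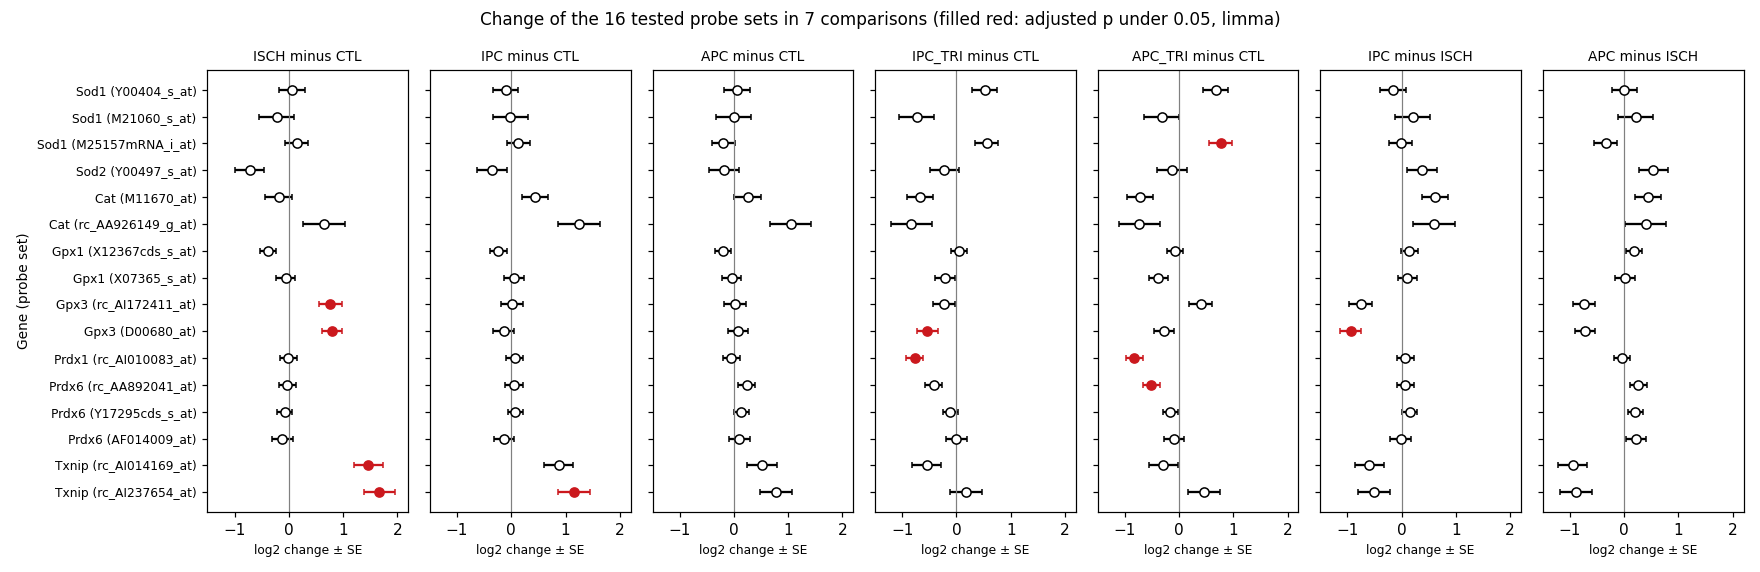
Log2 change ± SE of the 16 tested probe sets in 7 comparisons (panels), with filled red points at an adjusted p under 0.05 and open points otherwise. Both Txnip and both Gpx3 probe sets pass in ISCH minus CTL, Prdx1 passes in both trigger comparisons, and D00680_at of Gpx3 is the 1 probe set that passes in IPC minus ISCH.

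Superoxide dismutase 1 had 3 probe sets that did not follow each other, with correlations of -0.20, 0.20 and -0.21 over the 30 arrays. The suffix _s_at, which 2 of them carry, is the array maker's mark for probes that may match more than 1 transcript. On Y00404_s_at, the brightest, Sod1 read 4522, 3906, 5212, 5723 and 5989.8 in CTL and 8021, 9084, 8398, 7067 and 8092 in APC_TRI. It read 9117, 11363, 9098, 3060.3 and 7123 in IPC_TRI. All APC_TRI arrays and 4 of the 5 IPC_TRI arrays were above the CTL range, while IPC_TRI replicate 4 was below it. The changes were 0.67 ± 0.24 (adjusted p = 0.068) and 0.52 ± 0.24 (adjusted p = 0.13). Both passed without IPC_TRI replicate 4, which the fit uses for the shared spread, at 0.67 (adjusted p = 0.015) and 0.83 (adjusted p = 0.0031).

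From trigger to full protocol this probe set of Sod1 was lower, short of the threshold. The APC arrays read 4152, 6238, 5447, 5689 and 5710.1 and the IPC arrays 7547, 3754, 6305, 3586 and 3983. All 5 APC arrays were below every APC_TRI array, while IPC overlapped with IPC_TRI. The differences were -0.61 ± 0.24 in APC (adjusted p = 0.068) and -0.62 ± 0.24 in IPC (adjusted p = 0.054). The former passed in 2 other settings and without IPC_TRI replicate 4, and the latter in 1 other setting and without any 1 of 3 arrays, at -0.93 (adjusted p = 0.00069) without IPC_TRI replicate 4.

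On M25157mRNA_i_at Sod1 was also higher in the anaesthetic trigger. It read 5538, 4496, 3038, 2499 and 2689 in CTL and 5284, 4186, 6781, 6549.9 and 7019.8 in APC_TRI, with some overlap. Sod1 rose there by 0.77 ± 0.21 (adjusted p = 0.02), a call that was lost with median centring (0.69) and without any 1 of 4 arrays, with the lowest value 0.64 without CTL replicate 4 (adjusted p = 0.08). In the APC arrays the reading was 3403, 2955, 2163, 3072 and 4419, a change of -0.96 ± 0.21 from the trigger (adjusted p = 0.0016), and this call held in all settings. The IPC_TRI arrays read 4099.5, 5272, 4113, 6416 and 5080 on this probe set, 0.56 ± 0.21 above CTL (adjusted p = 0.065). That change passed with the spike covariate (0.64, adjusted p = 0.047) and without CTL replicate 1 or IPC_TRI replicate 3. M21060_s_at ran the other way in the triggers, at -0.32 ± 0.32 in APC_TRI and -0.73 ± 0.32 in IPC_TRI (adjusted p = 0.56 and 0.11). Its lowest readings were IPC_TRI replicate 5, at 755, and ISCH replicate 1, at 1973, each the array least like the rest of its group. Without them the IPC_TRI change was -0.22 (adjusted p = 0.3), and without IPC_TRI replicate 2 it passed, at -0.95 (adjusted p = 0.046). In ISCH, IPC and APC against CTL no Sod1 probe set was called, and the change of Y00404_s_at was 0.06 ± 0.24, -0.10 ± 0.24 and 0.06 ± 0.24.

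Sod2, the mitochondrial dismutase, was not called in any comparison. Y00497_s_at read 1705, 1395, 856, 1766 and 2096 in CTL and 449, 997, 931, 1388 and 869.7 in ISCH. The ISCH arrays were the lowest as a group and overlapped with CTL through CTL replicate 3. The change was -0.72 ± 0.28 (95% interval -1.29 to -0.16, adjusted p = 0.1). It passed with array weights (-0.68, adjusted p = 0.042), without CTL replicate 3 (-0.93, adjusted p = 0.037) or without ISCH replicate 4 (-0.88, adjusted p = 0.048). With the spike covariate it was 0.00 (adjusted p = 0.999). In the other groups the means were 1213 ± 389 in IPC, 1330.5 ± 292 in APC, 1259 ± 336 in IPC_TRI and 1362 ± 362 in APC_TRI (SD, n = 5), all below the CTL mean of 1564 ± 467. None of these differences passed.

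Catalase was lowest in the trigger groups and highest in the preconditioned hearts. On M11670_at it read 350.3, 392, 459, 366 and 261 in APC_TRI and 644, 688, 500.2, 949 and 865 in APC. It read 446, 218, 472, 436 and 424 in IPC_TRI and 1005, 803, 711, 906 and 665 in IPC. Every array of a full protocol was above every array of its trigger. Cat was higher by 1.10 ± 0.24 in IPC (2.15-fold, adjusted p = 0.0016) and by 0.97 ± 0.24 in APC (1.95-fold, adjusted p = 0.0052), and both calls held in all 13 other settings and without any single array. The second probe set, rc_AA926149_g_at, gave 2.08 ± 0.38 (adjusted p = 0.00022) and 1.78 ± 0.38 (adjusted p = 0.0013), the former 1.30 (adjusted p = 0.13) with the beta-actin covariate. Red blood cells are rich in catalase. Of 5 of their markers 3 were on the array, with a summed intensity of 604 to 1482 over the 30 arrays. Of these, 2 were tested, and none was called in these comparisons. The part of these cells in the Cat result was not tested.

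Against control hearts catalase passed nowhere. On M11670_at the CTL arrays read 499, 714, 447, 765 and 675 and the ISCH arrays 343, 664, 382, 858 and 523, and these ranges overlapped each other and those of the preconditioned hearts. The change was -0.71 ± 0.24 in APC_TRI (adjusted p = 0.061) and -0.67 ± 0.24 in IPC_TRI (adjusted p = 0.055). Of the 13 other settings the APC_TRI change passed in 5 and the IPC_TRI change in 2, and each passed without any 1 of 5 arrays. In IPC it was 0.43 ± 0.24, in APC 0.25 ± 0.24 and in ISCH -0.19 ± 0.24. On rc_AA926149_g_at the CTL arrays were spread, at 156, 670.3, 192, 665 and 506, and the IPC arrays read 1105, 763, 826, 1023 and 809. All 5 IPC arrays were above the CTL range there, a change of 1.25 ± 0.38 (adjusted p = 0.062), which passed in 5 of the 12 other settings, among them without IPC_TRI replicate 5 and ISCH replicate 1 (1.26, adjusted p = 0.0072). On that probe set APC minus CTL was 1.05 ± 0.38 (adjusted p = 0.17) and ISCH minus CTL 0.65 ± 0.38 (adjusted p = 0.34), the latter of the opposite sign to M11670_at. Without IPC_TRI replicate 5 and ISCH replicate 1 both passed, at 1.06 (adjusted p = 0.033) and 1.02 (adjusted p = 0.036). The probe sets had a correlation of 0.797 over the 30 arrays. The third, rc_AA926149_at, read 5.8 to 182 and was not tested.

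Gpx1, the glutathione peroxidase of the cytosol and mitochondria, passed in no comparison. X12367cds_s_at ranged from 7707 to 25697 over the 30 arrays. Its group means were 15266 ± 1451 in CTL, 14665 ± 4458 in ISCH, 14186 ± 1073 in IPC and 14666 ± 2152 in APC (SD, n = 5). In IPC_TRI the mean was 19640.0 ± 5036, and after quantile normalization the change against CTL was 0.05 ± 0.15. The nearest to a call was ISCH minus CTL, at -0.38 ± 0.15 (adjusted p = 0.12), and with the beta-actin ratio as a covariate it was -0.49 (adjusted p = 0.032). IPC minus IPC_TRI was at -0.29 ± 0.15 (adjusted p = 0.17), and it passed with that covariate (-0.65, adjusted p = 0.042) and without IPC_TRI replicate 5 and ISCH replicate 1 (-0.38, adjusted p = 0.019). The second probe set, X07365_s_at, had -0.06 ± 0.18 in ISCH minus CTL. In IPC minus IPC_TRI it had the opposite sign, at 0.26 ± 0.18 (adjusted p = 0.32). The pair had a correlation of 0.101 over the arrays. The third, M21210_i_at, read 9.1 to 30.2 and was not tested.

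**Figure D2:**
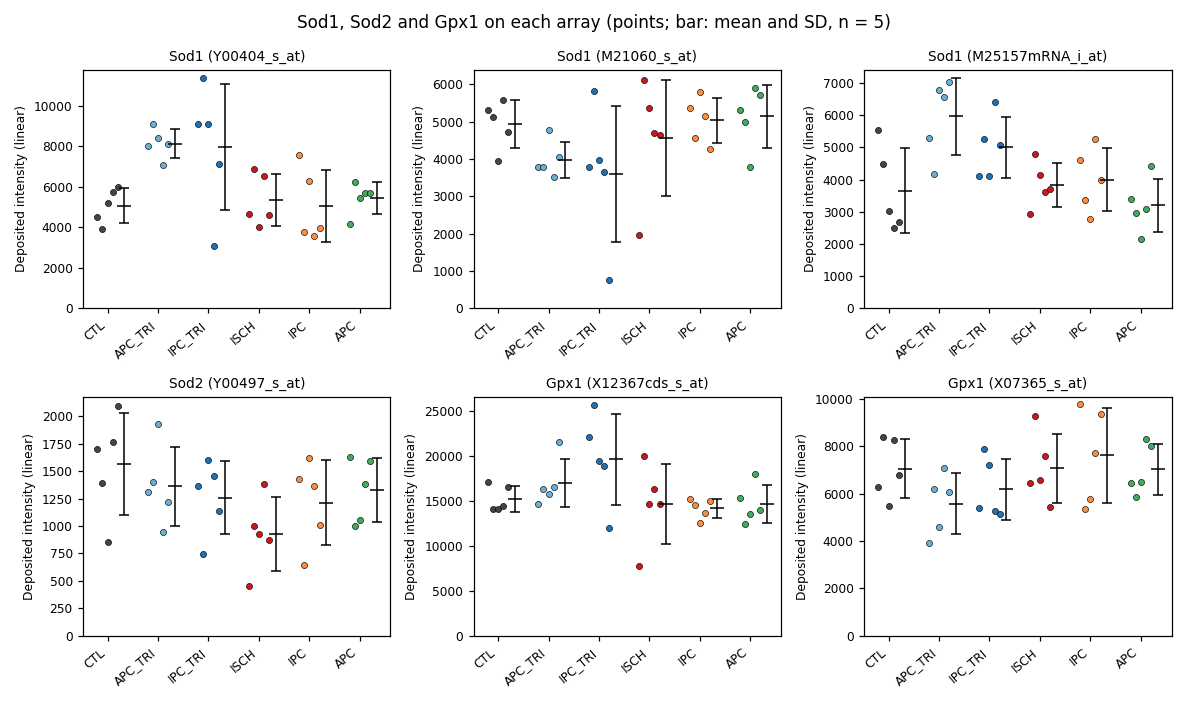
Deposited intensity (linear, from 0) of 3 Sod1 probe sets, Sod2 and 2 Gpx1 probe sets on each of the 30 arrays by group, with the mean and SD of the 5 arrays beside the points. The Sod1 probe sets order the groups differently, and IPC_TRI replicates 4 and 5 and ISCH replicate 1 lie far below their groups on 1 or 2 of them.

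Gpx3, the secreted glutathione peroxidase, rose in ischaemia without preconditioning. On rc_AI172411_at it read 3243, 3248, 3440.2, 3981 and 3964 in CTL and 4511, 6044, 7267, 7059.9 and 6142 in ISCH. On D00680_at it read 1285, 1005, 1211, 1483 and 1412 in CTL and 2513, 2077, 2025, 2092 and 1969.7 in ISCH. On both probe sets every ISCH array was above every CTL array. Gpx3 rose by 0.77 ± 0.21 (1.7-fold, adjusted p = 0.015) on the first and by 0.80 ± 0.19 (1.74-fold, adjusted p = 0.0067) on the second. With the spike covariate the changes were 0.80 and 0.83, with adjusted p = 0.12 and 0.078. Both missed the threshold with median centring too (0.68 and 0.64), and the first without ISCH replicate 3 (0.71, adjusted p = 0.0508).

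In both preconditioned groups Gpx3 was close to control. The change against CTL was 0.01 ± 0.21 in IPC and 0.03 ± 0.21 in APC on rc_AI172411_at (95% intervals -0.41 to 0.43 and -0.39 to 0.45), and -0.14 ± 0.19 and 0.07 ± 0.19 on D00680_at. On D00680_at the IPC arrays read 1095, 1056, 1384, 929 and 1169 and the APC arrays 1426, 1482, 1143, 1020.5 and 1562. All 10 of these were below the lowest ISCH array. Gpx3 on that probe set fell by 0.94 ± 0.19 in IPC against ISCH (adjusted p = 0.034), 1 of the 5 probe sets of 5244 called lower there (0.0953%). This call did not hold in 5 of the 12 other settings or without any 1 of 8 arrays, with values of -1.01 to -0.78. In APC minus ISCH it was -0.72 ± 0.19 (adjusted p = 0.079). On rc_AI172411_at the differences were -0.76 ± 0.21 in IPC (adjusted p = 0.13) and -0.74 ± 0.21 in APC (adjusted p = 0.099). By deposited intensity both groups overlapped with ISCH on that probe set. IPC replicate 5 read 5676 and APC replicate 1 read 4538, above the lowest ISCH array at 4511. After normalization only IPC overlapped with ISCH there.

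Most of a list of fibroblast and matrix markers were also higher in ISCH, where Gpx3 rose. All 6 markers of that list were measured, 5 of the 6 were called higher in ISCH than in CTL, and their summed intensity was 35581 to 68209 on the ISCH arrays against 21949 to 28102 on the CTL arrays. The median change of the 6 was 1.09 there. In IPC and APC the sums were 27142 to 52241 and 21498 to 32744. In the trigger groups the sums were also above those of CTL, at 38493 to 42777 (APC_TRI) and 35606 to 74442 (IPC_TRI). No Gpx3 probe set was called higher than in CTL there. Of the 6 markers 1 was called higher in each trigger, and the median changes were -0.14 and -0.13, opposite in direction to the sums. None of the 4 smooth muscle or 3 endothelial markers tested was called in ISCH minus CTL. The part of these cells in the Gpx3 result was not tested.

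In the trigger groups the Gpx3 probe sets disagreed. On rc_AI172411_at the APC_TRI arrays read 4963, 4305, 5889, 5799.6 and 2658 and the IPC_TRI arrays 2680.0, 3464, 2713, 3212 and 2594. Of the 5 APC_TRI arrays 4 were above every CTL array and replicate 5 was below them all, while the IPC_TRI arrays were level with CTL or below. The change against CTL was 0.40 ± 0.21 in APC_TRI and -0.23 ± 0.21 in IPC_TRI, and IPC_TRI minus APC_TRI was -0.63 ± 0.21 (adjusted p = 0.14; -0.81 and adjusted p = 0.045 without APC_TRI replicate 5). In APC_TRI minus CTL D00680_at was at -0.28 ± 0.19. It was just inside the threshold in IPC_TRI minus CTL, at -0.54 ± 0.19 (adjusted p = 0.0499), a call lost in 8 of the 12 other settings and without any 1 of 24 arrays. Without IPC_TRI replicate 5 and ISCH replicate 1 the value was -0.36 (adjusted p = 0.17). The 2 probe sets had a correlation of 0.680 over the 30 arrays.

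Prdx1, a cytosolic peroxiredoxin, was the member with the clearest difference in the trigger groups. It read 1348, 1555, 1406, 1256 and 1161 in the CTL arrays. It read 576, 864, 753, 947 and 600.3 in APC_TRI and 549, 1034, 791, 782 and 717 in IPC_TRI. All 10 trigger arrays were below the lowest CTL array. Prdx1 fell by 0.83 ± 0.16 in APC_TRI (0.564 of the control level, adjusted p = 0.0013) and by 0.77 ± 0.16 in IPC_TRI (0.585 of the control level, adjusted p = 0.0014).

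In ISCH, IPC and APC Prdx1 was near the control level. The arrays read 1347, 1355, 1174, 1220.2 and 1207 in ISCH, 1261, 1332, 1417, 1421 and 1485 in IPC and 1172, 1185, 1539.9, 1312 and 1152 in APC. These 15 arrays overlapped with CTL and lay above every trigger array. The changes against CTL were -0.01 ± 0.16 in ISCH, 0.06 ± 0.16 in IPC and -0.05 ± 0.16 in APC, with 95% intervals of -0.33 to 0.31, -0.26 to 0.38 and -0.37 to 0.27. Prdx1 was higher by 0.83 ± 0.16 in IPC than in its trigger (adjusted p = 0.00028) and by 0.78 ± 0.16 in APC than in its trigger (adjusted p = 0.00065). The 4 calls of Prdx1 held in each of the 13 other settings and without any single array. The mean beta-actin ratio was also lower in the trigger groups. With it as a covariate Prdx1 was -0.79 in APC_TRI minus CTL (adjusted p = 0.01) and -0.73 in IPC_TRI minus CTL (adjusted p = 0.016).

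Prdx6, the peroxiredoxin that also acts as a phospholipase, fell in the anaesthetic trigger on its brightest probe set and not on the others. On rc_AA892041_at it read 2171, 2164, 2011, 3093 and 2095 in CTL and 1749, 1427, 1733, 1395 and 1522 in APC_TRI. Every APC_TRI array was below every CTL array, and CTL replicate 4 was far above the other CTL arrays. Prdx6 fell by 0.51 ± 0.16 in APC_TRI (adjusted p = 0.04), and by 0.41 without CTL replicate 4 (adjusted p = 0.14). The call was lost in 5 of the 13 other settings and without any of APC_TRI replicates 2, 4 and 5 and CTL replicates 1, 2 and 4. With the beta-actin ratio as a covariate the change was -0.38 (adjusted p = 0.21). In IPC_TRI, where the arrays read 1285, 2253, 1765, 1442 and 1586, it was -0.42 ± 0.16 (adjusted p = 0.066), with replicate 2 inside the CTL range. The IPC_TRI change passed with the deposited values (-0.47, adjusted p = 0.045) and with median centring (-0.68, adjusted p = 0.023). It also passed without IPC_TRI replicate 2 or without ISCH replicate 1. Between the triggers, IPC_TRI minus APC_TRI was 0.09 ± 0.16 (adjusted p = 0.85).

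In the full protocols Prdx6 was higher than in their triggers. It read 2865, 2264, 2324, 2402 and 2121 in IPC and 2334, 2616, 2676, 3015 and 3132 in APC. Prdx6 was higher by 0.75 ± 0.16 in APC than in APC_TRI (adjusted p = 0.0012), with no overlap, and this call held in all other settings and without any single array. It was higher by 0.47 ± 0.16 in IPC than in IPC_TRI (adjusted p = 0.032), with overlap, and this call was lost with the beta-actin covariate (0.23, adjusted p = 0.6), in 2 other settings and without any 1 of 4 arrays. Neither Y17295cds_s_at nor AF014009_at was called anywhere, with 0.29 ± 0.14 (adjusted p = 0.14) and 0.20 ± 0.19 (adjusted p = 0.5) in APC minus APC_TRI. The correlation of the first probe set with each was 0.505 and 0.133 over the 30 arrays.

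**Figure D3:**
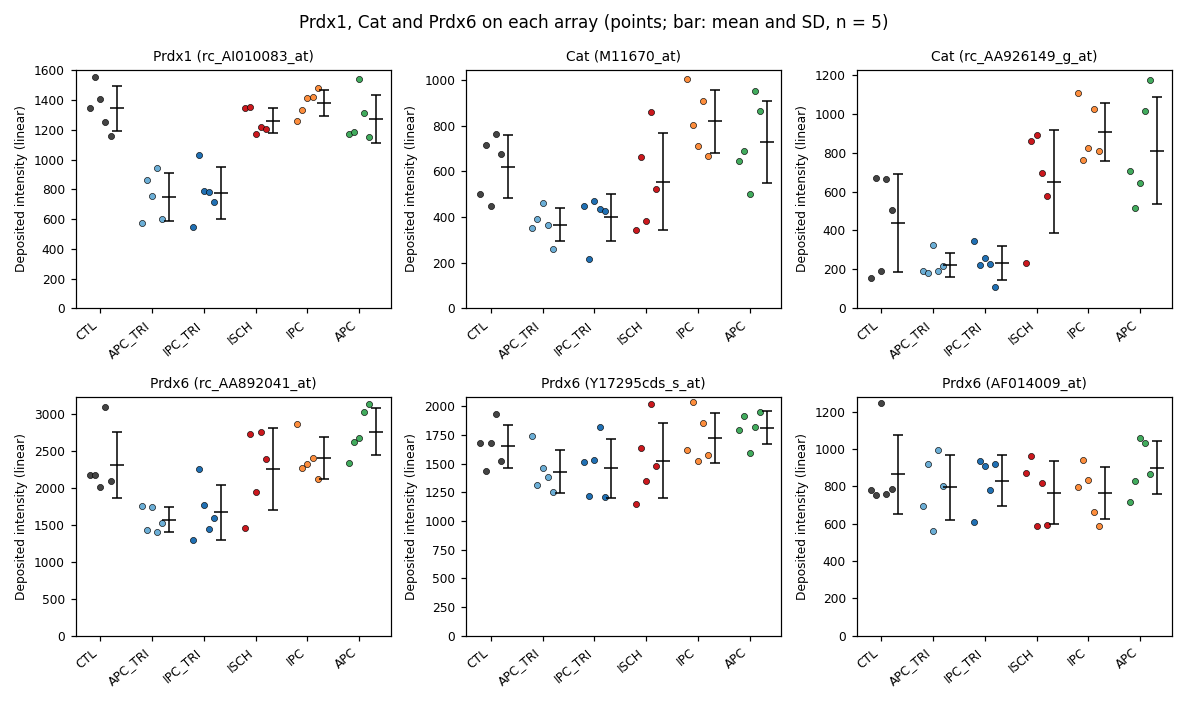
Deposited intensity (linear, from 0) of Prdx1, 2 Cat and 3 Prdx6 probe sets on each of the 30 arrays by group, with the mean and SD of the 5 arrays beside the points. All 10 trigger arrays of Prdx1 lie below every other array, and for Cat (M11670_at) the trigger arrays lie below every IPC and APC array.

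Txnip was the member that moved most in ischaemia. Its probe set rc_AI014169_at read 567, 648, 467, 602 and 505 in the CTL arrays and 2274, 1394, 1502, 1091 and 1489 in the ISCH arrays. The lowest ISCH array lay above the highest CTL array, so the groups did not overlap. Txnip rose by 1.47 ± 0.27 (2.77-fold, adjusted p = 0.00036), and the second probe set, rc_AI237654_at, rose by 1.67 ± 0.29 (adjusted p = 0.00019). The second probe set separated the groups as fully, at 268, 269, 236, 291 and 221 in CTL against 891, 825, 812, 698 and 998 in ISCH. The mean spike signal was also higher in ISCH. With that signal added to the fit the change of rc_AI014169_at was 1.16 (adjusted p = 0.07) and no longer passed, while that of rc_AI237654_at was 1.94 (adjusted p = 0.0022).

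The preconditioned hearts lay between control and unprotected ischaemia for Txnip. In the IPC arrays rc_AI014169_at read 1034, 840.3, 1233, 607 and 1714, and in the APC arrays 687, 1080.1, 907, 617 and 684. The lowest IPC array and the lowest APC array fell within the range of CTL, and every APC array was below every ISCH array, whereas IPC and ISCH overlapped. The change against CTL was 0.88 ± 0.27 in IPC (adjusted p = 0.067) and 0.52 ± 0.27 in APC (adjusted p = 0.53), and the former passed in 4 of the 13 other settings and without any 1 of 3 arrays. The second probe set passed in IPC minus CTL, at 1.16 ± 0.29 (adjusted p = 0.015), and without IPC replicate 5 it was 1.05 (adjusted p = 0.059). Against ISCH the first probe set differed by -0.59 ± 0.27 in IPC (adjusted p = 0.42) and by -0.95 ± 0.27 in APC (adjusted p = 0.11), neither past the threshold.

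In the trigger groups Txnip did not differ from control past the threshold. The first probe set read 534, 306, 462, 201 and 493 in IPC_TRI and 338, 464, 461, 833 and 286 in APC_TRI. Of these 10 arrays 7 were below the CTL range, and APC_TRI replicate 4 was above it. The 2 probe sets did not run the same way here, with -0.55 ± 0.27 and 0.18 ± 0.29 in IPC_TRI minus CTL and -0.29 ± 0.27 and 0.46 ± 0.29 in APC_TRI minus CTL, none of which passed. On rc_AI237654_at the IPC_TRI arrays ranged widely, at 381, 134, 178, 367 and 745, with replicate 5, the array least like its group, the highest. Over all 30 arrays the correlation of the 2 probe sets was 0.789.

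Each full protocol stood above its own trigger for Txnip. The difference was 1.43 ± 0.27 for IPC (adjusted p = 0.00032), with no overlap between the groups. For APC it was 0.81 ± 0.27 (adjusted p = 0.036), with overlap, and that call was lost with no filter, with the mean over the probe sets (0.56, adjusted p = 0.11) and without any 1 of 5 arrays, the lowest value among these being 0.65 without APC_TRI replicate 5 (adjusted p = 0.11). The second probe set passed for IPC at 0.98 ± 0.29 (adjusted p = 0.016) but not for APC, at 0.32 ± 0.29 (adjusted p = 0.48). Without IPC_TRI replicate 2 the former was 0.69 (adjusted p = 0.062). By normalized group mean the order of Txnip was ISCH, IPC, APC, CTL, APC_TRI and IPC_TRI, and no neighbours in that order differed past the threshold. The span from highest to lowest group mean was 2.02 on the log2 scale, the widest among the brightest probe sets of the 8 genes. On rc_AA926149_g_at Cat spanned 2.08.

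In several of the comparisons of Txnip 1 of the 2 tested markers on a list for fat cells was called. Of 5 markers on that list 4 were on the array and 2 were tested. Fabp4, a tested marker, had mean intensities of 198 in CTL, 827 in ISCH, 741 in IPC and 782 in APC. In APC_TRI and IPC_TRI its means were 44.9 and 136. In each of ISCH, IPC and APC against CTL, and in both full protocols against their triggers, 1 of the 2 was called higher and the other was not called. In APC_TRI minus CTL, where Txnip was not called, 1 of the 2 was called lower (median change of the 2 -0.89), and in IPC_TRI minus CTL none was (-0.39). The summed intensity of the 4 was 1347 to 2157 on the CTL arrays and 1373 to 2362 and 1128 to 2299 in APC_TRI and IPC_TRI. It was 2091 to 3185 in ISCH, 1796 to 2797 in IPC and 2485 to 2589.9 in APC, and no marker was at 0. The part of these cells in the Txnip result was not tested.

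**Figure D4:**
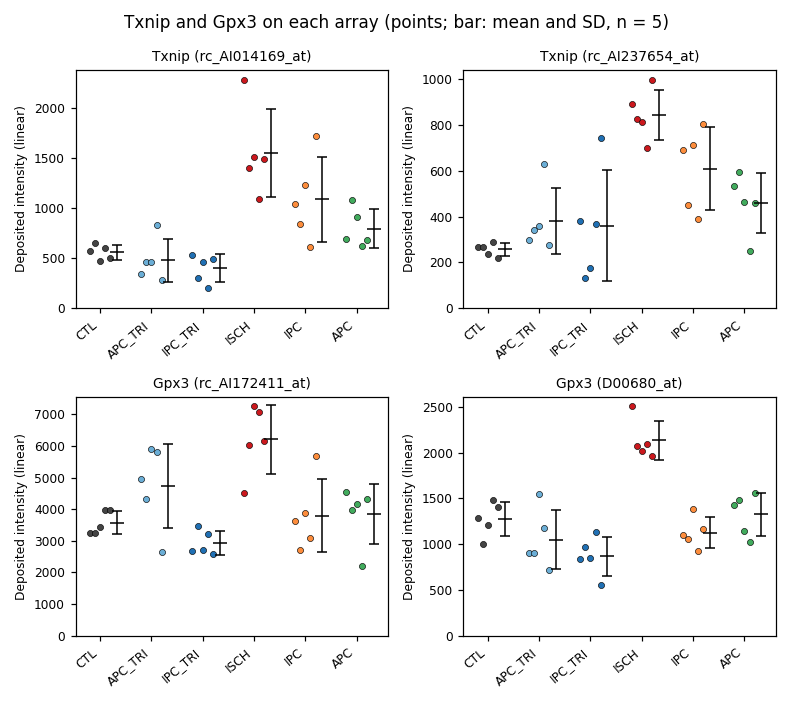
Deposited intensity (linear, from 0) of both Txnip and both Gpx3 probe sets on each of the 30 arrays by group, with the mean and SD of the 5 arrays beside the points. The 5 ISCH arrays lie above all 5 CTL arrays in each panel, and for D00680_at of Gpx3 they lie above every other array.

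No member differed past the threshold between the 2 kinds of preconditioning. In IPC minus APC limma called none of the 8 genes and 0 of 5244 probe sets, with 137 at an unadjusted p under 0.05, so that the share of genes called was 0%. The members' differences there ran from -0.24 ± 0.19 for AF014009_at of Prdx6 to 0.38 ± 0.29 for rc_AI237654_at of Txnip. For Txnip on rc_AI014169_at it was 0.36 ± 0.27, with a 95% interval of -0.19 to 0.91, and for Cat on M11670_at 0.18 ± 0.24, with -0.31 to 0.68. In IPC_TRI minus APC_TRI no member passed, against 0.349% of genes, and Gpx3 had the lowest adjusted p. The step from trigger to full protocol was compared between the kinds in 1 test, IPC minus IPC_TRI against APC minus APC_TRI. None of the 8 passed there, against 0.0634% of genes, and the largest differences were 0.67 ± 0.41 and 0.62 ± 0.38 for the Txnip probe sets and 0.61 ± 0.29 for Gpx3 (adjusted p = 0.68, 0.68 and 0.57).

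Across the 30 arrays the members most alike by Pearson r were Cat and Prdx6 (0.70), Prdx1 and Prdx6 (0.67) and Prdx1 and Txnip (0.63). The pair running most in opposite directions was Gpx1 and Txnip (-0.61), followed by Sod1 and Prdx1 (-0.59). By rank (Spearman) the order was reversed, at -0.49 and -0.61. ISCH replicate 1 was the lowest array for Gpx1 and the highest for Txnip. Prdx1 and Prdx6 had 0.49 by rank. These values are a description, as the arrays of a group share their protocol.

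Among other genes of the antioxidant systems Nqo1 fell in ischaemia and with both full protocols and, with Gclc, Gclm and Selenow, in the ischaemic trigger. Of a list of 31, 18 were on the array and 17 were tested. In ISCH minus CTL 1 of the 17 fell and none rose, where 4.91% of all genes fell, with a median of -0.17 beside -0.01 for all genes. In IPC minus CTL 1 rose and 1 fell (3.61% of all genes called), in APC minus CTL 1 fell (3.26%), and in IPC minus ISCH and APC minus ISCH none passed. Nqo1, a quinone reductase under the control of Nrf2, was the gene that fell in all 3, by 2.03 ± 0.27 in ISCH (adjusted p = 2.8e-06), and it fell by 1.82 ± 0.27 in IPC and by 2.03 ± 0.27 in APC. Its intensity was 2184 ± 1181 in CTL against 489 ± 155 in ISCH (SD, n = 5). Selenop, the plasma selenoprotein that carries selenium to tissues, rose by 1.17 ± 0.24 in IPC (adjusted p = 0.0017) and was at 0.72 ± 0.24 in ISCH (adjusted p = 0.058).

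In IPC_TRI minus CTL 4 of the 17 fell and 1 rose, where 8.75% of all genes fell and 6.94% rose, with a median of -0.09 beside -0.02 for all genes. In APC_TRI minus CTL 1 fell and 1 rose, where 4.28% fell and 3.61% rose, with a median of 0.00 beside 0.01. Gclc and Gclm, the subunits of the enzyme that limits glutathione synthesis, fell in IPC_TRI by 1.37 ± 0.40 (adjusted p = 0.019) and 1.33 ± 0.35 (adjusted p = 0.01). Gclc lost its call without IPC_TRI replicate 2 (-1.03, adjusted p = 0.066) and with array weights (-1.17, adjusted p = 0.073). Gclm lost its call with the beta-actin covariate (-1.02, adjusted p = 0.12), with array weights (-0.91, adjusted p = 0.066) and with only the groups compared (-1.30, adjusted p = 0.1). In APC_TRI Gclc was at -1.14 ± 0.40 (adjusted p = 0.068), a change that passed in 3 other settings and without IPC_TRI replicate 2, and Gclm at -0.77 ± 0.35 (adjusted p = 0.16). Gss, which completes glutathione synthesis, was at -0.35 ± 0.33 in IPC_TRI and -0.35 ± 0.33 in APC_TRI (adjusted p = 0.49 and 0.53). Nqo1 fell there by 1.32 ± 0.27 (adjusted p = 0.0016). Selenow, a small selenoprotein abundant in muscle, fell in both triggers, by 0.91 ± 0.15 in APC_TRI (adjusted p = 0.00038) and 0.61 ± 0.15 in IPC_TRI (adjusted p = 0.0076). The genes that rose were Hmox1, haem oxygenase, in IPC_TRI (0.60 ± 0.19, adjusted p = 0.027) and Txn2, mitochondrial thioredoxin, in APC_TRI (0.56 ± 0.17, adjusted p = 0.036), both named after their values were seen. From trigger to full protocol 3 of the 17 were higher and 2 lower in IPC, and 2 were higher and 2 lower in APC, with medians of 0.01 and -0.07 beside 0.01 and -0.01. Of all genes 12.2% were higher and 10.6% lower in IPC minus IPC_TRI, and 8.91% were higher and 8.34% lower in APC minus APC_TRI.

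Of 15 genes for sources of superoxide and related radicals, 9 were on the array and 6 were tested. Maoa, the monoamine oxidase that releases peroxide at the outer mitochondrial membrane, fell by 1.07 ± 0.25 in ISCH (adjusted p = 0.0058), from 4956 ± 779 to 2431 ± 827 (SD, n = 5). With the spike covariate it was at -0.68 (adjusted p = 0.32). Nos2, inducible nitric oxide synthase, fell by 1.27 ± 0.36 in IPC_TRI (adjusted p = 0.015), a call lost in 4 of the 13 other settings and without IPC_TRI replicate 2 or 5. As the mean over its probe sets it was at -0.43 (adjusted p = 0.31), and with array weights at -0.65 (adjusted p = 0.2). Without IPC_TRI replicate 2 it was at -0.87 (adjusted p = 0.055). No other of the 6 passed against CTL or ISCH, and the list's median was -0.23 in ISCH minus CTL and -0.18 in IPC_TRI minus CTL. Of 11 partners and regulators of Txnip, 6 were on the array and 5 were tested, and none passed against CTL or ISCH, with a median of -0.04 in ISCH minus CTL. The nearest was Slc2a4, the insulin-regulated glucose transporter, at -0.40 ± 0.14 in ISCH (adjusted p = 0.069). Foxo1, a transcription factor, was at 0.41 ± 0.22 in APC_TRI (adjusted p = 0.23).

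The genes whose pattern over the 30 arrays was most like that of Txnip, by Pearson r among 3147 other genes, were Dusp1 (r = 0.780), a phosphatase of MAP kinases, Ywhaq (0.778), a 14-3-3 protein, Fabp4 (0.774), a fatty acid binding protein, Aqp1 (0.764), a water channel, and Cyp4b1 (0.761), a cytochrome P450. Dusp1 had mean intensities of 1143 in CTL, 3282 in ISCH, 3113 in IPC and 3013 in APC. Fabp4 is on the fat cell list and its values are given above, so it is not a separate observation. For the other members the most alike genes were Rheb for Prdx1 (r = 0.853), Ppm1a for Cat (0.848), Grpel1 for Prdx6 (0.839), Slc4a4 for Gpx1 (0.762), Mgmt for Gpx3 (0.736), Ctbp1 for Sod1 (0.720) and Hspb6 for Sod2 (0.674). All of these values rest on arrays that share 6 protocols.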

How the data were processed

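Total RNA of rat left ventricle was measured on 30 Affymetrix arrays, 5 per protocol, and handled by the maker's standard procedures, per the labels. Each array has 1 linear intensity for each probe set in the deposited table, which the authors had scaled: the 2% trimmed mean lay between 500.8 and 501.0 on every array. The software that made them is not given in the sources used here. No arrays were identical (highest correlation 0.976).

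Arrays were grouped by their titles. Of 8799 probe sets, 59 controls were left out of the tests. Gene names came from GEO's platform annotation: 7018 probe sets had 1 symbol (12 of them controls), 308 several, and 1426 others none. Values were log2(intensity + 16), quantile normalized, without the lowest 40% of probe sets by mean. limma 3.58.1 (R 4.3.3) fitted 1 mean per group over all arrays with a trended prior, and p-values were adjusted by Benjamini-Hochberg over 5244 probe sets. The number of arrays limits the precision. A gene stands by its probe set with the highest mean. The fit was tested on simulated data. matplotlib 3.10.9, scipy 1.17.1, pandas 2.3.3 and numpy 2.4.6 under Python 3.11.15 made the tables and figures.

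The members, gene lists and tests were chosen with earlier results of these data known. Named from each list were members that passed against CTL or ISCH, at most 5 by smallest p, or the 2 with the smallest p where none passed. Alternatives were pseudocounts of 1 and 64, no filter, 60% left out, values as deposited, median centring, a replicate block, only the groups compared, array weights, the spike signal or the beta-actin ratio as a covariate, the mean over a gene's probe sets, and leaving out arrays.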

Additional observations from a re-analysis of the deposited data

Results flagged for a closer look

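Of 108 sets of 5 arrays (18 probe sets in 6 groups), 13 held an array whose gap to the nearest other array was over 0.71 of the whole range, which chance gives in about 1 in 20. For Sod1, IPC_TRI replicate 4 read 3060.3 on Y00404_s_at, against 7123 to 11363 in the other 4 arrays. On M21060_s_at of Sod1, IPC_TRI replicate 5 read 755.1 (others 3644 to 5830) and ISCH replicate 1 read 1973.1 (others 4657 to 6113). ISCH replicate 1 was also low for Gpx1 on X12367cds_s_at, at 7706.6 (others 14634 to 19973), and high for Gpx3 on D00680_at, at 2513.3 (others 1969.7 to 2092).

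For catalase on rc_AA926149_g_at, APC_TRI replicate 3 was high at 326 (others 182 to 219.8) and IPC_TRI replicate 5 low at 110.6 (others 221 to 348). Gpx1 on X12367cds_s_at was low in IPC replicate 3, at 12559.1 (others 13684 to 15169). Gpx3 on rc_AI172411_at was low in APC replicate 4, at 2202.6 (others 3976 to 4538).

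For Prdx6 on rc_AA892041_at, CTL replicate 4 was high at 3092.8 (others 2011 to 2171) and IPC replicate 1 high at 2865.4 (others 2121 to 2402). On Y17295cds_s_at APC replicate 3 was low at 1592.6 (others 1795 to 1954), and on AF014009_at CTL replicate 3 was high at 1244.7 (others 754 to 785). Of these arrays, ISCH replicate 1 was listed 3 times and IPC_TRI replicate 5 was listed 2 times.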

How the results depend on the processing

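No called change of a member turned its direction in another setting or without any single array. Of the 8 genes, the number called in ISCH minus CTL was 2, became 3 with the beta-actin covariate or array weights, 1 with median centring and 0 with the spike covariate, and was 1 to 3 when each array was left out. In APC_TRI minus CTL it was 2, became 1 with the beta-actin covariate, the mean over probe sets, median centring, no filter or the spike covariate, became 4 with array weights or only the groups compared, and was 1 to 3 with an array left out. In IPC_TRI minus CTL it was 1, became 2 with the lowest 60% left out or the deposited values unnormalized and 4 after median centring, and was 1 to 3 with an array left out. In IPC minus CTL it was 0 and became 1 with array weights, the mean over probe sets, median centring or only the groups compared (0 to 1 with an array left out). In IPC minus ISCH it was 0 and became 1 with array weights or the mean over probe sets (0 to 1), in APC minus ISCH it became 2 with array weights, and in IPC_TRI minus APC_TRI it was 0 to 1 with an array left out. The cause was not tested. The counts in IPC minus IPC_TRI and APC minus APC_TRI stayed between 3 and 5. Of 55 same-number pairs of arrays the correlation of deviations from the group means was over 0.1 in 7 (range -0.138 to 0.207). Pairs of different number were not computed beside them, so this check does not settle whether replicate numbers pair the arrays. In the F test 6 genes passed, 4 with the mean over probe sets and 5 with the replicate block, the beta-actin covariate, array weights, median centring, no filter or without IPC_TRI replicate 5 and ISCH replicate 1. With the replicate block D00680_at of Gpx3 no longer passed in IPC minus ISCH (-0.94, adjusted p = 0.068). The calls over everything tested also varied, and the number tested differs with the filter and with the mean over probe sets. They ran from 157 to 933 in ISCH minus CTL, against 460 of 5244 probe sets in the main fit. They ran from 0 to 267 in IPC minus ISCH, against 9, and from 0 to 203 in APC minus ISCH, against 14. In IPC_TRI minus CTL they ran from 227 to 925, against 869, and in APC_TRI minus CTL from 193 to 1065, against 453. With 5 arrays per group a member that missed the threshold is not shown to be alike in the groups.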
